A study of Mus musculus with 12 samples.

Results

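Erythroid cells that expand under erythropoietin (Epo) can lower hepcidin, the liver hormone that limits the entry of iron into plasma, and 3 secreted proteins have been put forward as the signal. The data on their genes in mouse pro-erythroblasts (Pro-E) are described here: Fam132b, the symbol in the deposited table for Erfe (erythroferrone), Gdf15 and Twsg1. They were taken by symbol, and all 3 were among the 24453 genes of the table, of which 9650 passed the filter on low values (3 or more libraries at 1 FPKM or above). Fam132b and Twsg1 passed it, and Gdf15 did not. Cish and Osm, which are induced through Epo, JAK2 and STAT5 signaling, were measured beside them. Fam132b rose in β-thalassemic Pro-E, Gdf15 was close to the limit of detection, and Twsg1 passed the test in no comparison.

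Erythroferrone is made by erythroblasts in response to Epo and binds BMP ligands, which drive hepcidin transcription in hepatocytes. GDF15 is a stress-induced member of the TGF-β superfamily, and it was proposed as a hepcidin suppressor from work on human thalassemia serum and human hepatocytes. TWSG1 (twisted gastrulation) is a secreted BMP-binding protein. In β-thalassemia, where many erythroblasts die before they mature, hepcidin is low for the iron load, and apotransferrin (apoTf), the iron-free form of the plasma iron carrier, is used in mice to change iron delivery to these cells.

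Pro-E had been sorted from bone marrow, and polyadenylated RNA was sequenced in 12 libraries, each from a few pooled mice, with 3 libraries per group. The groups were apoTf-treated thal (Hbb th1/th1 mice injected with 10 mg of human apoTf, or 400 mg/kg/day, for 20 days), thal (Hbb th1/th1 mice given PBS), apoTf-treated WT and WT (given PBS). Cells were collected 3 days after the last injection. Hbb th1/th1 mice are homozygous for a deletion of the adult β-globin gene Hbb-b1 in every cell, a model of β-thalassemia intermedia, and the methods name C57BL6 for WT and a mixed background. Mice were 5 months old by the labels, and the methods give a somewhat younger age. The labels also describe the removal of 0.4 mL of blood with collection 24 h later, for all libraries. No source says whether the sequenced mice had been bled, which raises Epo. Nothing states that the libraries of a group came from separate experiments, so p values measure the spread between these libraries.

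Genotype tags went against the titles in all 12 libraries, and the libraries were grouped by title. Hbb-b1 stood at 97.5 to 204 FPKM in apoTf-treated thal and 133 to 175 in thal libraries, against 1096 to 3241 in apoTf-treated WT and 722 to 1788 in WT libraries, so it went with the titles. Reads of near-identical β-globin genes cannot be told apart from those of Hbb-b1. All 11 erythroid markers passed the filter. The number that passed was 0 of 6 for B cells, 0 of 5 for T and NK cells and 0 of 7 for stroma. It was 1 of 8 for macrophages, 5 of 8 for granulocytes and monocytes and 2 of 5 for megakaryocytes and platelets. Granulocyte and monocyte markers summed to 1.89 to 11.4 FPKM in apoTf-treated thal, 0.931 to 6.92 in thal, 2.73 to 48.8 in apoTf-treated WT and 2.76 to 38.3 in WT libraries. Megakaryocyte and platelet markers summed to 9.09 to 12.3 FPKM in apoTf-treated thal, 6.80 to 8.87 in thal, 6.99 to 11.2 in apoTf-treated WT and 10.5 to 16.7 in WT libraries, so thal was below WT and below apoTf-treated thal without overlap. Of single genes, 3.24% were below WT in thal and 6.76% below apoTf-treated thal in this way. Most of the sum was Gp9 (5.39 to 14.3 FPKM), and no other marker of this list was above 1.295. The part of both lists in the differences below was not tested. WT replicate 1 stood apart, with a median Spearman correlation of 0.867 with the other libraries, against 0.982 to 0.990 for the other 11, and with ribosomal Rn45s at 31177 FPKM, against 1609 to 6116. The totals of reads implied by the steps of the FPKM were 33200000 to 51500000 per library.

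Erfe lies on chromosome 1 (GRCm38, chr1:91366430-91374217, plus strand). Its promoter (RefSeq, GRCm38.p6, chr1:91366180-91366479, from 250 bases before the start to 50 after it) and that of Cish (chr9:107296409-107296708, plus strand), a classical STAT5 target, are printed 5′ to 3′ because both genes had their highest levels in thal Pro-E. Capitals mark CACCC or its reverse complement GGGTG (the core of KLF1-type sites), GATAA (GATA factors) and TTCNNNGAA (STAT5), searched on both strands.
Erfe promoter: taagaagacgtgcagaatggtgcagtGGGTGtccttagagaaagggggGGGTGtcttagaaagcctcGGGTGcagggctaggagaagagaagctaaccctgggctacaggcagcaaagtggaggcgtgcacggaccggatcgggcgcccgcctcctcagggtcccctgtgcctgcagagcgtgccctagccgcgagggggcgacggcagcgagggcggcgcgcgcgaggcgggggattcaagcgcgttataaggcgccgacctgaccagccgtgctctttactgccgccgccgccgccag
Cish promoter: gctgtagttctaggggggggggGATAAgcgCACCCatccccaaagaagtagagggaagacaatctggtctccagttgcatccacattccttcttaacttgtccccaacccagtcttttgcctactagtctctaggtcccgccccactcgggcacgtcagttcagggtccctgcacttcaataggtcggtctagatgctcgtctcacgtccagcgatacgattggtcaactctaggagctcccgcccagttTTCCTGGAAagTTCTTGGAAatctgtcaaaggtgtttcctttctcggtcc
The Erfe window held 3 GGGTG matches, which began 224, 202 and 183 bases before the start, and no match to the GATA or STAT5 motif. The Cish window held 2 STAT5-type matches, TTCCTGGAA at the start and TTCTTGGAA 11 bases after it, with 1 GATAA and 1 CACCC. Of 32851 mouse promoters of the same length, 8.30% held the STAT5 motif, 25.4% the GATA motif and 57.5% the CACCC motif, so CACCC matches are common. Both Gdf15 start sites held CACCC matches (3 and 1), and the Twsg1 window held none of these motifs. Tnfrsf21 had 4 CACCC matches and Plek2 had none. Osm, Podxl and Fabp5 were not among the promoters matched. Matches are letters in a window, not sites shown to be bound.

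Fam132b was measured in all 12 libraries. Its FPKM (reads scaled by the length of the gene and the depth of the library) were 2.30, 1.72 and 2.17 in apoTf-treated thal, 8.82, 13.3 and 4.89 in thal, 1.17, 1.70 and 1.36 in apoTf-treated WT, and 1.33, 1.38 and 1.75 in WT libraries. All 3 thal libraries lay above all 9 others, and they also spread most, with replicate 3 below the other two. Thal above WT without overlap held for 3.68% of the genes tested, and the share above all 9 others was not computed. Over the length of its transcript these values stand for about 124 to 1651 reads, so the low libraries were not limited by single reads. Its rank among all genes ran between the 62.7th and the 85.2nd percentile.

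In thal Pro-E, Fam132b averaged 8.99 ± 4.19 FPKM, against 1.49 ± 0.23 in WT (SD, n = 3 each), a ratio of means of 6.04. In a bulk library, fewer cells that express a gene and less RNA per cell cannot be told apart. By limma on log2(FPKM + 0.5), it rose by 2.16 (SE 0.28, 95% interval 1.56 to 2.76, adjusted p = 0.00716). At that threshold 25 of the 9650 genes tested differed (0.259%), 15 of them higher in thal (0.155%). The count was 6 without thal replicate 1 and likewise without thal replicate 2, 13 without thal replicate 3 and 90 without WT replicate 2. The groups did not overlap, which held for 3.68% of genes in this direction, and the exact permutation p was 0.1, the smallest that 3 libraries against 3 allow. The adjusted p rose to 0.058 without thal replicate 1, and to 0.173 where the spread was taken from the thal and WT libraries alone, with log2 fold changes of 2.12 and 2.16. Without WT replicate 1 the value was 2.10 (adjusted p = 0.00778).

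ApoTf-treated thal Pro-E had 2.06 ± 0.30 FPKM of Fam132b, against 8.99 ± 4.19 in thal (SD, n = 3 each), and the thal mean was 4.36 times as high. The log2 difference was -1.79 (SE 0.28, 95% interval -2.40 to -1.19). The unadjusted p was 3.17e-05 and the adjusted p from limma was 0.0764, so the difference did not pass the threshold, where 3 of the 9650 genes did (0.0311%). The groups did not overlap (2.89% of genes in this direction, exact permutation p = 0.1). The call turned on single libraries: the adjusted p was 0.00468 without thal replicate 3 and 0.0251 without WT replicate 1, and between 0.11 and 0.602 without any other library. By means, 0.575 of the 7.50 FPKM by which thal exceeded WT was left after apoTf, which is 7.67% of it. This share has no interval and depends on the scale. In log2, thal exceeded WT by 2.16 and apoTf-treated thal exceeded WT by 0.37 (95% interval -0.24 to 0.97).

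In WT mice, no change of Fam132b with apoTf was larger than the spread between libraries. The mean was 1.41 ± 0.26 FPKM in apoTf-treated WT, against 1.49 ± 0.23 in WT Pro-E (SD, n = 3 each). The log2 difference was -0.06 (95% interval -0.66 to 0.54, adjusted p from limma 0.899), in a comparison in which 0 of 9650 genes passed (0%) and 984 had an unadjusted p under 0.05. Without WT replicate 2, 449 passed, and 3 did without apoTf-treated WT replicate 3. The interaction term, which sets the apoTf effect in thal against that in WT mice, was -1.73 on the log2 scale (SE 0.39, 95% interval -2.59 to -0.88). Its unadjusted p was 0.000835 and its adjusted p 0.744, and no gene passed that test (0%), with 473 at an unadjusted p under 0.05.

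Between treated mice, all 3 apoTf-treated thal libraries (1.72 to 2.30 FPKM) were above all 3 apoTf-treated WT libraries (1.17 to 1.70), by 0.43 in log2 (95% interval -0.18 to 1.03, adjusted p = 1.0). Groups apart in this direction were seen for 8.88% of genes here. The adjusted p was 0.189 with the 6 libraries of these groups fitted alone and paired by replicate number, a fit in which 213 genes passed. Those 6 libraries without the pairing gave 5, and all 12 libraries gave 4 (0.0415%). ApoTf-treated thal also averaged more than WT, by 0.37 in log2 (95% interval -0.24 to 0.97, adjusted p = 0.511), with overlapping groups and 5 of 9650 genes called (0.0518%), 1 of them higher, against 3 of 8 with quantile normalization. The order of means was thus thal, apoTf-treated thal, WT and apoTf-treated WT, and of the neighbours in this order thal and apoTf-treated thal were the only pair whose libraries did not overlap.

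**Figure D1:**
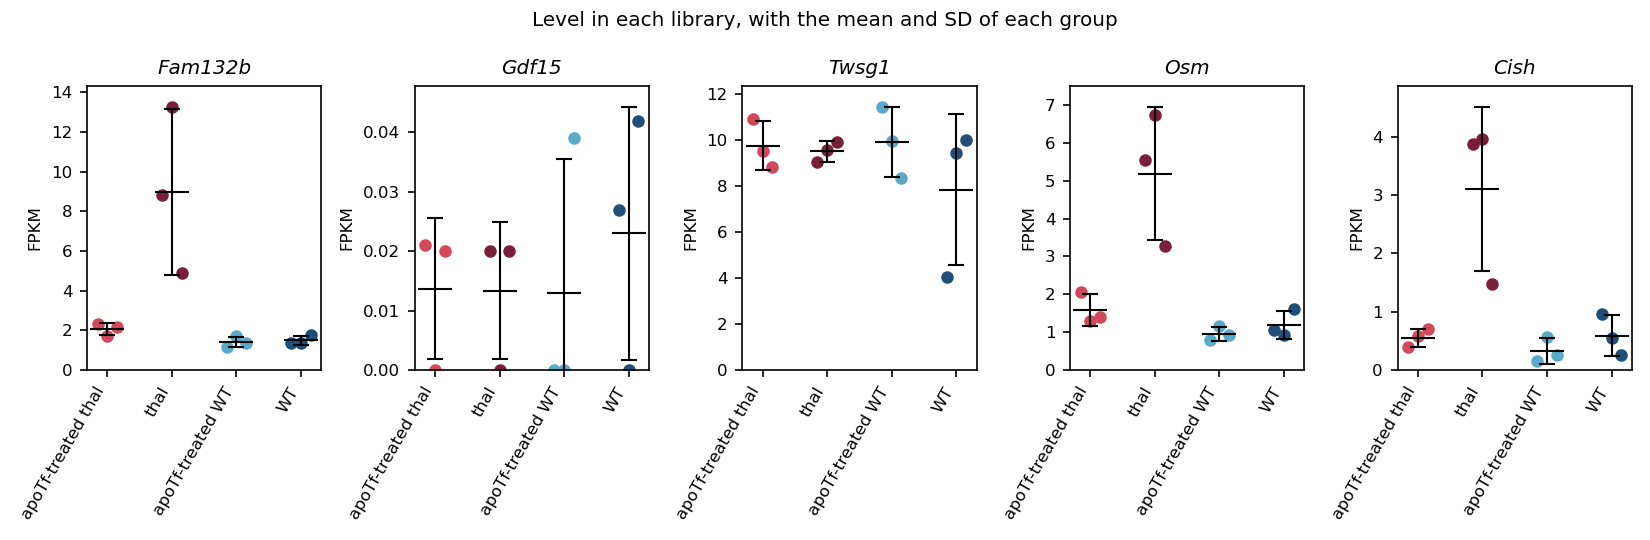
FPKM of Fam132b, Gdf15, Twsg1, Osm and Cish (one panel each, separate linear axes) in each library, by group. Points are libraries, and the bars give the mean and SD of 3. For Fam132b the thal libraries lie at 4.89 to 13.3 FPKM and all others at or under 2.30, while Twsg1 lies near 10 FPKM in all but WT replicate 1 (4.06).

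The lower levels of Fam132b carry a limit that the counting sets. The last exon of Erfe overlaps the end of Ilkap, a gene on the other strand that codes for a phosphatase tied to integrin-linked kinase. The shared stretch with a protein-coding Ilkap transcript (Ilkap-212) is 152 bases (GRCm38, GENCODE M21, chr1:91373865-91374016). The matched transcript of Fam132b is 2815 bases long. An Ilkap transcript marked for nonsense-mediated decay (Ilkap-205) shares 357 bases, and no other Ilkap transcript was found to share exon bases. The Ilkap levels below are those of the whole gene. Reads were counted on both strands, so reads of Ilkap there cannot be told apart from those of Fam132b. Ilkap was at 34.2, 34.4 and 31.0 FPKM in apoTf-treated thal, 36.0, 38.2 and 32.6 in thal, 32.6, 31.6 and 30.2 in apoTf-treated WT, and 31.7, 30.5 and 36.9 in WT libraries. It did not pass the test in thal Pro-E relative to WT (log2 0.11, 95% interval -0.17 to 0.39, adjusted p from limma 0.644). Were its coverage even at the level of the whole gene, Ilkap would add 1.63 to 2.06 FPKM to Fam132b. In apoTf-treated WT libraries this would be 1.63 to 1.76, against 1.17, 1.70 and 1.36 listed for Fam132b. An addition cannot exceed the listed level, so the even-coverage value was too high for some of the 9 libraries other than thal. Over these 9 libraries the correlation between both genes was 0.35 (exact p = 0.351). How many of the reads listed for Fam132b came from Ilkap was not tested, and the ratios of Fam132b above are those of the listed values.

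**Figure D2:**
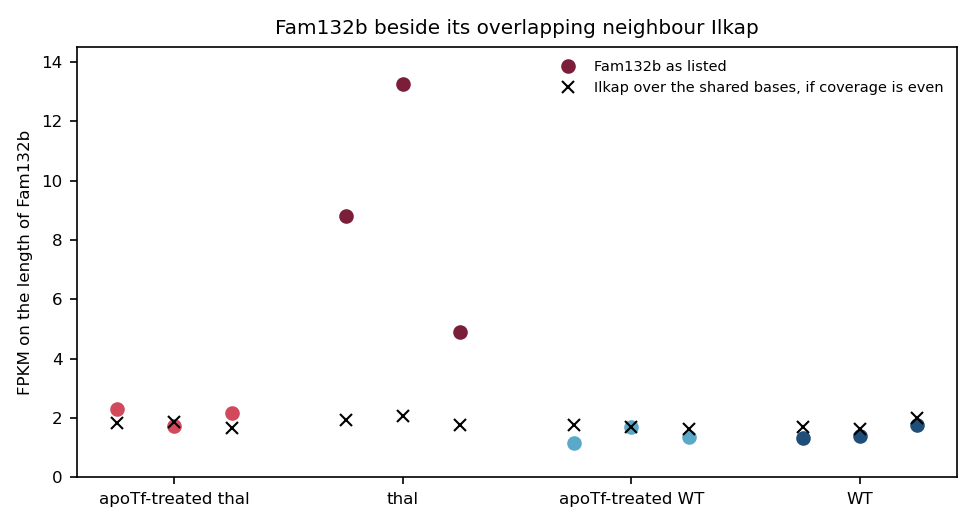
Fam132b FPKM as listed (points) and the FPKM that Ilkap reads would add over the 152 shared bases if its coverage were even (crosses), on the length of Fam132b, for each library by group. The crosses use the level of the whole Ilkap gene and lie at 1.63 to 2.06 FPKM in all groups. Some lie above the listed Fam132b, and only the 3 thal libraries have Fam132b well above them.

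Gdf15 was barely detected in Pro-E. The gene lies on chr8:70629393-70632456 (minus strand, GRCm38). Its FPKM were 0.021, 0 and 0.020 in apoTf-treated thal, 0.020, 0 and 0.020 in thal, 0, 0 and 0.039 in apoTf-treated WT, and 0.027, 0 and 0.042 in WT libraries. These values fell on whole multiples of 1 step to within 0.021 of it, and read that way they stand for 1 or 2 reads in 7 libraries and none in 5. The step was set from these same values and implies a length of 1096 bases, against 1380 and 1545 for the matched transcripts. With those lengths the values come to at most about 3 reads. Summed over 3 libraries, the step reading gives 2 reads in apoTf-treated thal, 2 in thal, 2 in apoTf-treated WT and 3 in WT (exact Poisson 95% intervals 0.24 to 7.22 for 2 reads and 0.62 to 8.77 for 3, for counting error alone). In all, 9 of about 532300000 reads were assigned to the gene by this reading. In a library listed at 0, the 3 reads that a count of 0 allows would be 0.053 to 0.068 FPKM.

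No difference in Gdf15 was detectable at this depth. Thal and WT Pro-E had 0.013 and 0.023 FPKM on average, and the exact permutation p was 0.5. It was 1.0 between apoTf-treated thal and thal, and 0.7 between apoTf-treated WT and WT. Transcripts of some factors known to induce Gdf15 under stress were well expressed in the same cells, and the activity of these factors was not measured. Atf4, the transcription factor of the integrated stress response, averaged 134.7 FPKM in thal and 122.3 in WT Pro-E, Ddit3 (CHOP) 19.3 and 20.5, and Trp53 (p53) 48.4 and 52.4. None of the 10 tested genes of a list of 15 targets and partners of these factors passed in any of the 6 comparisons. Of all genes, 0% to 0.259% passed in them, so a short list with none is near that share. Their median log2 difference was 0.11 in thal relative to WT, against 0.08 over all genes. The 5 untested genes of the list were under 1 FPKM in all libraries. Among them, Atf3 was at 0.022 to 0.023 FPKM in thal and 0.011 to 0.092 in WT Pro-E.

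Twsg1 was expressed in all libraries and no comparison passed. The gene lies on chr17:65921972-65951226 (minus strand, GRCm38). Its FPKM were 10.9, 9.52 and 8.82 in apoTf-treated thal, 9.04, 9.58 and 9.94 in thal, 11.4, 9.95 and 8.37 in apoTf-treated WT, and 4.06, 9.44 and 10.0 in WT libraries. All groups overlapped, and the 1 low value was that of WT replicate 1, the library that stood apart. About 551 to 2093 reads lay behind these values.

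Thal Pro-E averaged 9.52 ± 0.45 FPKM of Twsg1, against 7.84 ± 3.29 in WT (SD, n = 3 each). The log2 difference was 0.36 (95% interval -0.22 to 0.94, adjusted p from limma 0.528), and it was -0.03 without WT replicate 1. ApoTf-treated thal differed from thal by 0.03 (95% interval -0.55 to 0.61) and from apoTf-treated WT by -0.02 (95% interval -0.60 to 0.56), with adjusted p of 1.0 for both. ApoTf-treated WT differed from WT by 0.40 (95% interval -0.18 to 0.99, adjusted p = 0.41), or by 0.02 without WT replicate 1. A change of the size seen for Fam132b in thal Pro-E lay outside all of these intervals.

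**Figure D3:**
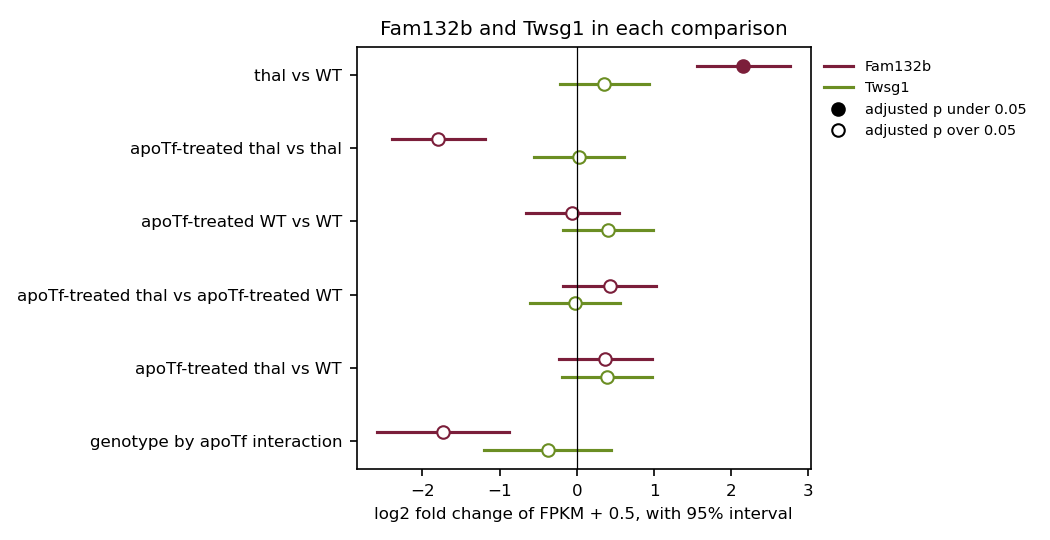
Log2 fold change of FPKM + 0.5 (x axis) with its 95% interval for Fam132b and Twsg1 in the 6 comparisons (y axis), from limma over 12 libraries. Filled points have an adjusted p under 0.05: Fam132b in thal vs WT (2.16) is the only one, and the intervals of Twsg1 all cover 0.

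Osm and Cish had patterns in thal Pro-E like that of Fam132b. Osm codes for oncostatin M, a cytokine of the IL-6 family, and was at 2.06, 1.29 and 1.39 FPKM in apoTf-treated thal, 5.55, 6.73 and 3.27 in thal, 0.788, 1.15 and 0.915 in apoTf-treated WT, and 1.04, 0.922 and 1.61 in WT libraries. It rose by 1.72 in thal Pro-E relative to WT (SE 0.25, adjusted p from limma 0.0164), and differed by -1.42 between apoTf-treated thal and thal (SE 0.25, adjusted p = 0.19). Both thal replicate 1 and thal replicate 2 were needed for the first call, with adjusted p of up to 0.107 without either. The call was also lost with the replicate number as a block (adjusted p = 0.0575), without a filter (0.0584) and in the groups alone (0.249).

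Cish, which codes for a feedback inhibitor of the Epo receptor, was at 0.388, 0.582 and 0.695 FPKM in apoTf-treated thal, 3.88, 3.96 and 1.48 in thal, 0.148, 0.569 and 0.256 in apoTf-treated WT, and 0.962, 0.549 and 0.251 in WT libraries. The thal libraries lay above all others, with replicate 3 lowest, as for Fam132b and Osm. Thal above WT without overlap held for 3.68% of genes, and the share above all other libraries was not computed. The log2 difference was 1.69 in thal relative to WT (SE 0.34, adjusted p from limma 0.0915) and -1.69 in apoTf-treated thal relative to thal (SE 0.34, adjusted p = 0.392). The first passed without thal replicate 3 (adjusted p = 0.0278) and without WT replicate 1 (0.033).

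Since the thal libraries formed a cluster apart in Fam132b, correlations were taken over the 9 other libraries, for 4 pairs. Fam132b and Osm went together, with Pearson's r of 0.906 (exact permutation p = 0.0009, BH-adjusted 0.0035) and Spearman's rho of 0.933 (exact p = 0.0007, adjusted 0.003). Without the 2 libraries farthest from the median of Fam132b, r was 0.791. As deviations from the group means of all 12 libraries r was 0.902 (exact p = 0.0015, adjusted 0.0062), and 0.858 (exact p = 0.0139) without the thal group. With ranks in place of values, the within-group p was 0.0139 and its adjusted value 0.0556. In some of these 9 libraries the even-coverage addition of Ilkap exceeded the listed Fam132b, so it is no estimate of the shared reads. The part of Ilkap in this correlation was not tested.

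No such relation was found for the other 3 pairs. For Fam132b and Cish r was 0.205 (exact p = 0.589) over the 9 libraries, and rho 0.150 (exact p = 0.708). Within groups r was 0.582 (exact p = 0.296) with thal and -0.07 (exact p = 0.870) without it. Over the 9 libraries r was 0.529 without WT replicate 1, -0.12 without apoTf-treated WT replicate 1 and 0.026 without the 2 libraries farthest from the median of Fam132b. For Fam132b and Twsg1 r was 0.290 (exact p = 0.490) and rho 0.217 (exact p = 0.581), and r was -0.035 without WT replicate 1, 0.552 without apoTf-treated WT replicate 1 and 0.478 without the 2 farthest libraries. For Fam132b and Gdf15 r was 0.158 (exact p = 0.675) and rho 0.174 (exact p = 0.652), over 9 libraries with 0 to 2 reads of Gdf15 each, and r was -0.089 without the 2 farthest.

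**Figure D4:**
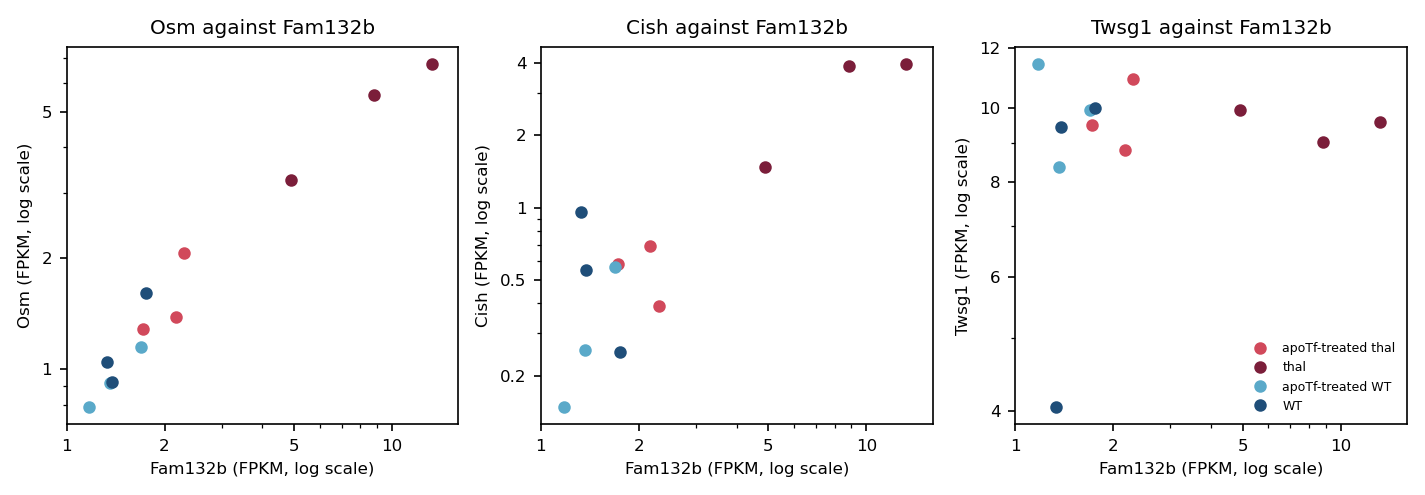
Osm, Cish and Twsg1 (y axes) against Fam132b (x axis), all in FPKM on log scales, with 1 point per library and color for the group. Osm follows Fam132b within and outside the thal libraries (r = 0.906 over the 9 others), Cish is high with it only in the 3 thal libraries, and Twsg1 lies at 8.37 to 11.4 FPKM across the range of Fam132b, except in WT replicate 1.

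The genes most like Fam132b were then ranked by Pearson's r over all 12 libraries, among 6732 genes with a group mean of at least 5 FPKM. This r is a description, since all points share the 3 high thal libraries. Osm came first (0.986), then Tnfrsf21 (0.981), which codes for death receptor 6, Podxl (0.976), a surface sialomucin, Plek2 (0.967), a lipid-binding protein of the pleckstrin family, and Fabp5 (0.924), a fatty acid carrier. Twsg1 was at rank 2537 (0.164). Tnfrsf21 was at 4.319, 3.237 and 3.404 FPKM in apoTf-treated thal and 10.6, 13.2 and 8.29 in thal, against 2.34 to 2.79 in WT libraries. Podxl was at 1.56, 0.799 and 0.620 FPKM in apoTf-treated thal and 10.8, 23.6 and 9.86 in thal, against 0.318 to 0.403 in WT libraries. All 5 reached the 5 FPKM minimum through the thal group alone, so these values describe the pattern they were chosen for.

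The genes most like Twsg1 had another pattern. Snx5 (0.998), Vdac2, 2900097C17Rik and Spcs3 (0.995 each) and Trim37 (0.994) were all lowest in WT replicate 1. Snx5 was at 32.3 FPKM there and at 61.8 to 82.2 in the other 11 libraries, so the ranking for Twsg1 follows that library.

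Of 13 genes of Epo, JAK2 and STAT5 signaling, 10 were tested. The list was chosen with earlier results of these data known, and the study itself had picked Podxl and Plek2 from these libraries, so its counts are not independent evidence of a direction. In thal relative to WT, 3 rose (Osm, Podxl and Plek2), where 0.155% of all genes did, and none fell, with a median log2 difference of 0.53 against 0.08 over all genes. In apoTf-treated thal relative to thal, 1 fell (Podxl), where 0.0311% of all genes passed, and the median was -0.58 against 0.03. Plek2 rose by 2.59 in thal Pro-E (SE 0.39, adjusted p from limma 0.0181). Pim1, a kinase induced by STAT5, averaged 9.69 FPKM in apoTf-treated thal and 22.2 in thal, against 11.1 in WT Pro-E, and did not pass (thal vs WT 0.92, adjusted p = 0.527). The receptor Epor (-0.53), the kinase Jak2 (0.14) and the factors Stat5a (-0.30) and Stat5b (-0.23) did not pass in thal relative to WT either, in log2. Socs1, Socs2 and Socs3, feedback inhibitors of cytokine signaling, were too low for the test. Socs2 was at 0.079, 0.041 and 0.021 FPKM in apoTf-treated thal and 0.292, 0.432 and 0.199 in thal, against 0 in all 3 WT libraries, so its thal libraries lay above all others. Among tested genes, which leave out Socs2, 3.68% had thal above WT without overlap, and the share above all other libraries was not computed. The thal libraries of Socs1 (0.036 to 0.110 in thal, against 0 to 0.122 in WT) and Socs3 (0.016 to 0.090 in thal, against 0 to 0.022 in WT) overlapped with WT.

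**Figure D5:**
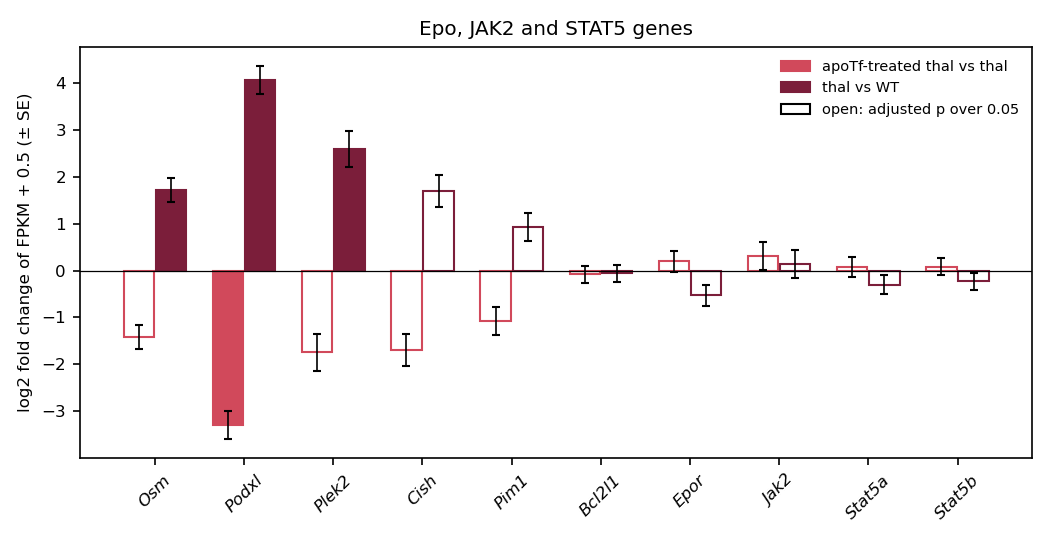
Log2 fold change of FPKM + 0.5 (y axis, bars with SE) of the 10 tested Epo, JAK2 and STAT5 genes in apoTf-treated thal vs thal and in thal vs WT. Filled bars have an adjusted p under 0.05: Osm, Podxl and Plek2 in thal vs WT, and Podxl in apoTf-treated thal vs thal (-3.29). The receptor, kinase and STAT5 genes lie between -0.53 and 0.31.

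The ligands that erythroferrone and TWSG1 bind were mostly absent from Pro-E. Of 23 BMP ligands and antagonists, 21 were under 1 FPKM in all libraries, and 6 of these were at 0 in all. The 2 that were tested, Bmp1 (a protease despite its name) and Tgfb1, did not pass in any comparison. Bmp1 was at 1.69, 1.79 and 1.95 FPKM in thal, against 3.995, 2.946 and 5.153 in WT libraries, and it missed the threshold (-0.94 in log2, adjusted p from limma 0.095). Of 21 BMP receptors, co-receptors and SMADs, 5 were tested (Bmpr2, Acvr2a, Eng, Smad4 and Smad5) and none passed. At most 0.259% of all genes passed in any comparison. The BMP target genes Id1, Id2 and Id3 stayed at or under 0.196 FPKM. Hepcidin itself (Hamp) was at 0 to 0.126 FPKM. Of the genes that set hepcidin in the liver, Tfr2 (transferrin receptor 2) was at 26.3 to 52.9 FPKM and Tfrc at 77.3 to 494.2, neither of which passed in any comparison. The highest Tfr2 and the lowest Tfrc value were both those of WT replicate 1, the library that stood apart. In the list of 8 genes of hepcidin and iron sensing, Hamp included, 4 were under 1 FPKM in all libraries.

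The closest relative of erythroferrone on the lists, Fam132a, was far more abundant than Fam132b. It was at 258.3, 227 and 210.1 FPKM in apoTf-treated thal, 171.8, 192.6 and 230.6 in thal, 231.5, 200 and 185.5 in apoTf-treated WT, and 317.4, 213.2 and 320.5 in WT libraries, at the 99.6th to the 99.8th percentile of all genes. Fam132a did not follow Fam132b: its log2 difference in thal relative to WT was -0.50 (95% interval -0.91 to -0.09, adjusted p from limma 0.528). The other 5 genes listed with Fam132a, Pdgfa, Pdgfb, Fgl1, Gdf11 and Inhbb, did not pass the filter.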

How the data were processed

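The members and the gene lists were chosen with earlier results of these data known. STAR alignment to mm10 came first, per the labels and the methods; the authors kept uniquely aligned reads, counted them in exons on both strands with HOMER, condensed isoforms to genes and deposited FPKM, rounded to 3 decimals. The labels also name featureCounts; tool versions are not given in the sources used here. The deposited table also holds the authors' fold changes and adjusted p values of apoTf-treated against untreated Pro-E, which were not used.

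Groups were compared with limma 3.58.1 (R 4.3.3; eBayes with a trend in the prior variance) on log2(FPKM + 0.5), over the 9650 genes that reached 1 FPKM in 3 or more of 12 libraries. The fit had 4 group means and no block, with two-sided tests, Benjamini-Hochberg adjustment within each of 6 comparisons and a threshold of 0.05. Fold changes on this scale understate those of low genes. Members, Cish and Osm were also compared by exact two-sided permutation tests of mean FPKM, the only test for Gdf15. Named genes were the 3 members, Cish, Osm, the 5 genes most like each member, and, of each list, genes past the threshold and up to 4 more by unadjusted p; Socs1 to Socs3, Atf3, Ilkap, Hamp and Id1 to Id3 were named after their values were seen.

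Whole reads were read from FPKM steps in 2548 short genes, where 79.1% to 84.9% of the values were within 0.05 of whole reads, so no count test was run; totals of 33200000 to 51500000 reads per library are estimates. Both the limma fit and this step were tested on simulated data. Replicate numbers paired apoTf-treated thal with apoTf-treated WT libraries alone (correlations of deviations 0.253 to 0.507), a pairing seen in the data and stated nowhere. Pseudocount, filter, scaling, prior, libraries in the fit, replicate block and each library left out were varied. Coordinates are GRCm38 (GENCODE M21), and promoters are from RefSeq, GRCm38.p6. Protein sequences were not used here.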

Additional observations from a re-analysis of the deposited data

How the results depend on the processing

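Fam132b kept its direction in thal relative to WT and in apoTf-treated thal relative to thal under every alternative run that tested it; a filter of 5 FPKM left it untested. Fitted on the groups compared alone, its thal vs WT value of 2.16 had an adjusted p of 0.173. With 1 library left out, it was 1.84 to 2.52 in thal vs WT (called except without thal replicate 1), -2.15 to -1.48 in apoTf-treated thal vs thal (called only without thal replicate 3 or WT replicate 1) and -0.165 to 0.033 in apoTf-treated WT vs WT.

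No alternative brought Twsg1 past the threshold. With 1 library left out its log2 value was -0.03 to 0.57 in thal vs WT, -0.052 to 0.095 in apoTf-treated thal vs thal, -0.128 to 0.086 in apoTf-treated thal vs apoTf-treated WT, -0.002 to 0.60 in apoTf-treated thal vs WT and -0.591 to 0.013 in the interaction. The Gdf15 difference in mean FPKM was -0.0063 to 0.0072 in apoTf-treated thal vs thal, -0.0058 to 0.0137 in apoTf-treated thal vs apoTf-treated WT (-0.0006 with median-ratio scaling) and -0.0208 to 0.0002 in apoTf-treated thal vs WT; under the filter, Gdf15 had no value for the other alternatives but the fit without a filter. Cish in apoTf-treated thal vs WT was -0.24 to 0.24, and 0.043 with a pseudocount of 0.1. Osm in thal vs WT, 1.72, had an adjusted p of 0.0584 without a filter and 0.249 in the groups alone.

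The count of genes called in thal vs WT, 25, was 8 with a filter of 5 FPKM, 40 with quantile normalization, 9 with the groups alone, and 6 (without thal replicate 1) to 90 (without WT replicate 2) with 1 library left out. In apoTf-treated thal vs thal it was 7 without a filter, 5 with the groups alone and 1 to 6 with 1 library left out. In apoTf-treated WT vs WT it was 1 without a filter and 0 to 449 (without WT replicate 2) with 1 library left out. In apoTf-treated thal vs apoTf-treated WT it was 2 to 7 with 1 library left out. In apoTf-treated thal vs WT it was 8 with quantile normalization, 1 with the groups alone and 1 to 7 with 1 library left out. In the interaction it was 1 without a filter and 0 to 1 with 1 library left out. The causes were not tested.

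With the replicate number as a block, 13 genes passed in thal vs WT and 1 in apoTf-treated thal vs thal, with Fam132b at 2.16 (adjusted p = 0.0198) and -1.79 (adjusted p = 0.234), and Osm in thal vs WT at an adjusted p of 0.0575. The block changed no other call of Fam132b, Twsg1, Cish or Osm. The numbers pair apoTf-treated thal with apoTf-treated WT libraries alone, where 213 genes passed in a paired fit of those 6 libraries, chosen after seeing the data, and 5 without the pairing; elsewhere same-numbered libraries correlated at -0.394 to 0.373.

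The correlation of Fam132b with Osm was 0.854 to 0.954 with 1 library left out. With Twsg1 it was -0.035 to 0.552, and -0.13 with median-ratio scaling and -0.32 with quantile normalization. With Gdf15 it was -0.032 to 0.351 and with Cish -0.12 to 0.53. Within groups and without thal, an alternative added after seeing the data, the value for Cish was -0.07. With quantile normalization the median log2 difference of all genes in apoTf-treated thal vs WT was -0.001, against 0.101 as deposited, the largest shift of the 6 comparisons, and in thal vs WT it was 0.004, against 0.084. Depth limits Gdf15. Reads of Ilkap may be part of the low Fam132b levels, which was not tested.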
